A study of Mus musculus with 30 samples.

Results

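Gene expression after Cardamonin was compared with that after its solvent, DMSO, in cultured mouse tail fibroblasts. The comparison covers every gene that reached 1 TPM (a gene's share of a library's transcripts, corrected for transcript length) in at least 3 of the 9 libraries of these groups. That rule kept 12991 of the 29861 genes listed and used 9 of the 30 libraries of the series, 3 with Cardamonin and 6 with DMSO. A gene could enter through 1 group alone: 95 genes reached 1 TPM in all 3 Cardamonin libraries and in no DMSO library, and 517 did so in 3 or more DMSO libraries and in no Cardamonin library. Those genes had to differ: they are counted with the rest, also among the genes set apart below, but their levels are a description. No test of a single gene among them against DMSO is given. Of the genes named below they are Ecel1, Map7d2, Nefm, Abcb1a and Areg, under 1 TPM in every DMSO library, and Ccl20 and Bach2, under 1 TPM in every Cardamonin library. Gsta2 reached 1 TPM in DMSO only in its highest library, so its entry also depended on Cardamonin and it is treated in the same way. In Csf1r, Ccn2, Agtr1a and Slc1a3, among others, fewer than 3 Cardamonin libraries reached 1 TPM. Their entry depended on DMSO, so their falls are a description too.

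The cells were CCG-HTA-1, 1 primary line grown from the tails of UMHet3 mice, a genetically mixed stock, with a donor age of 5 to 8 weeks given for these 9 libraries. They were used at passage 4 in high-glucose DMEM lacking pyruvate, with 10% FCS, at 37 °C in 10% CO2 and ambient oxygen, and RNA was taken 48 hours after treatment and depleted of ribosomal RNA. The comparison groups beyond DMSO were AEG 3482, Podofilox, Antimycin A, Dihydrorotenone, Diphenyleneiodonium Cl, BerberineA and Clofilium tosylate. Each had 3 libraries of the same line, passage and culture conditions. The labels give their donor age as 5 to 8 weeks too, except for Dihydrorotenone replicate 1, whose older range begins at 8 weeks. That library was kept in the fit. Leaving it out gave 253 genes set apart, as defined below, in place of 254. Doses are not given in the labels, so compounds are compared at whatever dose each received. All libraries are of 1 cell line, so p-values measure the spread between its cultures or libraries and not between animals. The study's title asks which routes of cellular stress resistance need the transcription factor NRF2 and which do not.

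Cardamonin is a chalcone found in plants, with an unsaturated ketone that can react with thiol groups. The sensor protein KEAP1, which marks NRF2 for destruction, carries reactive cysteines; when they are modified, NRF2 accumulates, pairs with small MAF proteins and binds antioxidant response elements near genes for glutathione, thioredoxin, NADPH and heme metabolism. Electrophiles can also stress protein folding, and cells answer through heat shock factor, through the unfolded protein response of the endoplasmic reticulum and through ATF4, the transcription factor of the integrated stress response, which raises genes for amino acid uptake and synthesis. Cultured fibroblasts make matrix, can become contractile myofibroblasts, and release chemokines under the control of NF-kB and interferon signalling.

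The deposited tables list known genes that take up 92.7% to 93.7% of all TPM, and between 12229 and 12302 genes reached 1 TPM in a Cardamonin library against 12569 to 12700 in a DMSO library. Libraries of 1 group resembled each other closely (Pearson r of log2 values 0.990 to 0.992 among Cardamonin and 0.985 to 0.992 among DMSO), and r between the groups was 0.899 to 0.927. Library numbers ran consecutively within each group, so library batch and treatment cannot be told apart. All 12 fibroblast markers were present in both groups. Keratinocyte markers summed to 2.02 to 2.33 TPM in Cardamonin and 2.20 to 3.06 TPM in DMSO with Krt1, Krt5 and Krt15 listed at 0, and skeletal muscle markers summed to less than 1 TPM in every library.

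Below, levels are mean TPM ± SD over 6 DMSO and 3 Cardamonin libraries. Differences are Cardamonin minus DMSO means of log2(TPM + 1), with the standard error (SE) of the limma fit, and understate the change of genes with low TPM. A gene is said to have risen or fallen when its limma p, adjusted by Benjamini-Hochberg over the 12991 genes, was below 0.05.

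Most of the measured transcriptome moved. Cardamonin changed 9418 genes, equal to 72.5% of the table: 5036 rose (38.8%) and 4382 fell (33.7%). That balance depended on scaling: rises and falls numbered 4391 and 4964 with median-ratio factors, 4712 and 4648 when libraries were rescaled on all but their 20 most abundant genes, and 5077 and 4324 with quantile normalization. Genes that moved 2-fold or more were fewer, 1977 genes or 15.2%, and falls outnumbered rises among them, with 1233 lower (9.49%) against 744 higher (5.73%). The falls stayed in excess as the size grew: 287 genes fell and 142 rose by at least 4-fold, 84 fell and 41 rose by at least 8-fold, and 21 fell and 12 rose by at least 16-fold. The median difference over all genes was 0.04 and the median size of a difference 0.39, so a list is read below against 0.04 and, on the deposited scale, against the shares of 38.8% and 33.7%. In 8261 genes (63.6%) all 3 Cardamonin libraries lay outside the range of the 6 DMSO libraries. A lack of overlap in any gene below is to be read against that share.

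**Figure D1:**
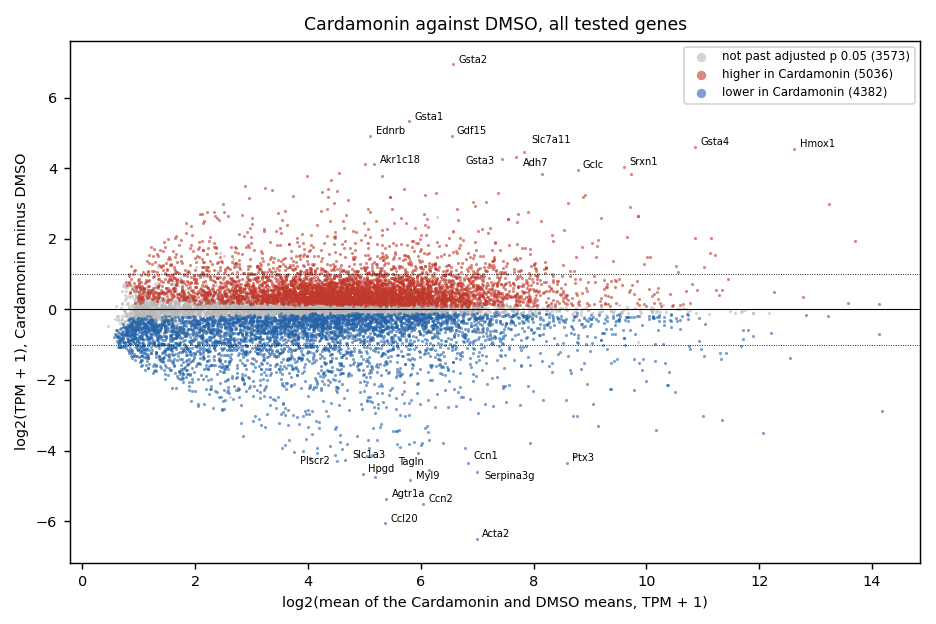
Difference between Cardamonin and DMSO (vertical axis, log2(TPM + 1)) against mean level (horizontal axis, log2 of TPM + 1) for the 12991 genes tested, each point 1 gene. Red points are the 5036 genes past the threshold and higher, blue points the 4382 lower, grey points the others, and dotted lines mark a 2-fold change; the largest rises include the abundant Hmox1 and Gsta4, and the largest falls include Acta2.

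The 12 largest rises among non-overlapping genes whose higher group averaged 5 TPM or more were Gsta2, Gsta1, Ednrb, Gdf15, Gsta4, Hmox1, Slc7a11, Adh7, Gsta3, Akr1c18, Srxn1 and Gclc. Glutathione chemistry recurs among these names: 4 are glutathione S-transferases, Gclc makes the precursor of glutathione, and Slc7a11 imports the cystine it is made from. The 12 largest falls on the same log2(TPM + 1) scale were Acta2, Ccl20, Ccn2, Agtr1a, Myl9, Hpgd, Serpina3g, Tagln, Ptx3, Ccn1, Plscr2 and Slc1a3. Acta2, Myl9 and Tagln encode parts of the contractile apparatus, Ccn1 and Ccn2 are matricellular proteins, and Ccl20 and Ptx3 are secreted in inflammation. In each of these 24 genes all Cardamonin libraries lay on one side of all DMSO libraries, as the naming rule required.

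**Figure D2:**
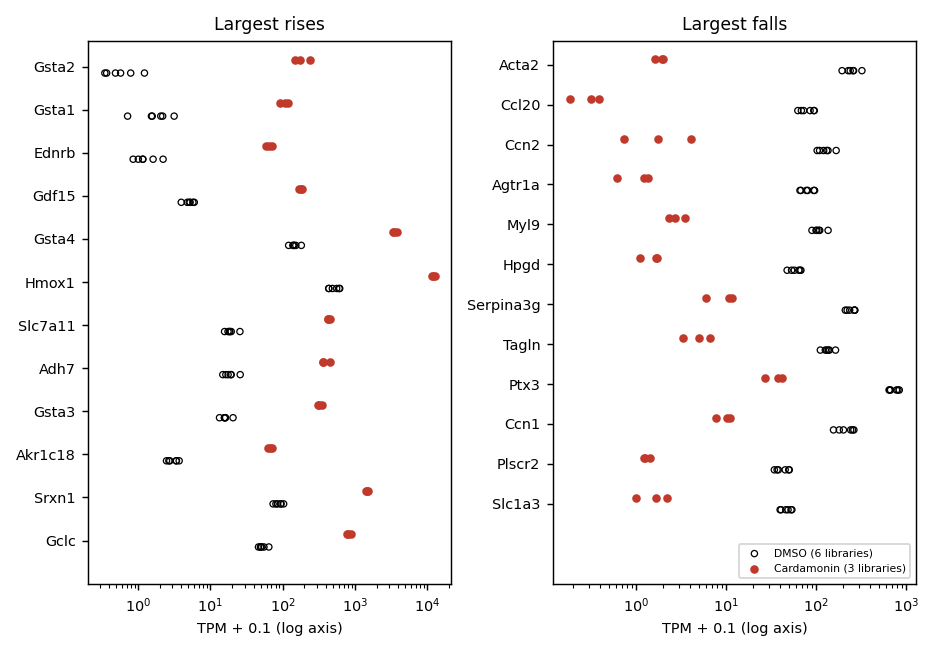
Level (TPM + 0.1, log axis) of the 12 genes with the largest rises (left) and the 12 with the largest falls (right), 1 point per library, with 3 Cardamonin libraries as filled red points and 6 DMSO libraries as open black points. The groups do not overlap in any of the 24 genes, as the naming rule required.

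The NRF2 system itself rose moderately. Of 10 genes for NRF2 and its partners, 9 rose and 1 fell (median difference 0.69). Nfe2l2, the gene for NRF2, rose from 139.8 ± 6.32 to 187 ± 2.7 TPM, a difference of only 0.42 ± 0.04. The repressor side rose as well, Keap1 from 38.9 ± 2.53 to 63.2 ± 3.25 TPM and Bach1, which competes with NRF2 for the same elements, from 28.2 ± 2.61 to 44.1 ± 1.7 TPM. Small MAF genes, whose products are NRF2's binding partners, rose from 72.5 ± 4.61 to 176 ± 5.36 TPM for Mafg and from 20.4 ± 1.11 to 47.9 ± 3.16 TPM for Mafk. The largest rise in this list was in Sqstm1, which encodes p62, an autophagy receptor that binds KEAP1: it read 3601, 3498 and 3819 TPM in the Cardamonin libraries against a lowest, median and highest of 823, 898 and 987 TPM in DMSO. Bach2 was the exception, at 1.77 ± 0.237 TPM in DMSO and 0.433 ± 0.076 TPM in Cardamonin.

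Both steps of glutathione synthesis rose, as did cystine uptake. Of 11 genes for glutathione synthesis and cystine uptake, 8 rose and 2 fell, with a median difference of 2.84. Slc7a11 (ENSMUSG00000027737, chr3:49892526-50443614), the cystine-importing subunit of system xc-, read 422, 428 and 455 TPM in Cardamonin against 15.7, 18.4 and 25.7 TPM (lowest, median, highest) in DMSO. The groups were far apart, and the difference was 4.45 ± 0.10 (limma adjusted p = 2.14e-22). Slc3a2, which encodes the heavy chain that carries that subunit to the membrane, rose from 128 ± 6.69 to 617 ± 23.7 TPM. Gclc (ENSMUSG00000032350, chr9:77754535-77794485), the catalytic subunit of the rate-limiting glutamate-cysteine ligase, read 784, 810.2 and 875 TPM against 46.3, 50.6 and 64.5 TPM (difference 3.94 ± 0.07). Its modifier subunit Gclm rose from 110.3 ± 13.2 to 1584 ± 56.2 TPM, the next enzyme Gss from 29.8 ± 3.3 to 299.6 ± 34.3 TPM, and Gsr, which regenerates reduced glutathione, from 23.5 ± 2.38 to 174 ± 11.3 TPM. Degradation genes split: Chac1, a glutathione-cleaving enzyme that is also an ATF4 target, rose from 3.12 ± 0.558 to 40.8 ± 1.26 TPM, while Ggt5, an extracellular glutathione hydrolase, fell from 39.6 ± 7.06 to 10.4 ± 4.56 TPM. Cbs, which makes the cystathionine that can supply cysteine, averaged 1.6 ± 0.43 TPM with DMSO and 0.729 ± 0.341 with Cardamonin.

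Glutathione S-transferases attach glutathione to electrophiles, and their genes moved in both directions. Of 22 tested (of 23 listed), 11 rose (50%) and 8 fell (36.4%), and the median difference was only 0.18. Over all tested genes the shares were 38.8% and 33.7%, so the list as a whole was not far from them. The alpha class led. Gsta2 (ENSMUSG00000057933, chr9:78331018-78355788) read 174, 150.4 and 238 TPM in Cardamonin and at most 1.13 TPM in DMSO, a difference of 6.94 ± 0.25. No test is given for it, because its entry into the comparison depended on the Cardamonin libraries. Gsta1 (ENSMUSG00000074183, chr9:78230656-78242684) read 108, 93.3 and 119 TPM against 0.621, 1.72 and 3.07 TPM in DMSO. Transcripts of Gsta1 share 92.9% of their 31-base words with other genes and those of Gsta2 60.7%, so the split of reads among these neighbours is uncertain. Other genes named here that share many words, with levels uncertain for the same reason, are marked where they appear or are Gstm1 (28.8%), Sod2 (26.6%), Gpx4 (38.9%), Me1 (30.0%), Phgdh (55.9%), Hsp90aa1 (51.4%), Hspb1 (52.3%), Psmb5 (71.7%), Ctsd (33.2%), Pkm (34.7%) and Tubb4b (48.6%). Gsta4 (ENSMUSG00000032348, chr9:78182774-78209349), which acts on the lipid peroxidation product 4-hydroxynonenal, read 3428, 3396 and 3877 TPM against 121, 144 and 182 TPM, and Gsta3 (ENSMUSG00000025934, chr1:21240589-21265661) 317, 312 and 353 TPM against 13.3, 15.9 and 20.6 TPM. Their differences were 4.60 ± 0.08 and 4.26 ± 0.10. The pi-class Gstp1 rose from 252 ± 23.2 to 1587 ± 72.3 TPM and Gstp2 from 7.79 ± 1.13 to 77.8 ± 3.89 TPM (38.5% and 60.3% of their words shared), Gstm1 from 541 ± 29.5 to 1515 ± 101 TPM and Gsto1 from 61.7 ± 3.16 to 182 ± 12.2 TPM. Other members went the opposite way: Gstt1 fell from 87.6 ± 6.78 to 13.9 ± 5.0 TPM, Mgst3 from 25.6 ± 1.27 to 5.03 ± 0.323 TPM and Gstm2 from 181 ± 7.25 to 85 ± 9.4 TPM.

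Thioredoxin genes also moved in both directions. Of 15, 7 rose (46.7%) and 5 fell (33.3%), with a median of 0.09. These shares too were not far from the 38.8% and 33.7% of all tested genes. Srxn1 (ENSMUSG00000032802, chr2:152105516-152111376), the sulfiredoxin that repairs overoxidised peroxiredoxins, read 1457, 1425 and 1515 TPM against 73.9, 89.3 and 103 TPM in DMSO, a difference of 4.04 ± 0.07. Prdx1, a cytosolic peroxide-reducing enzyme, rose from 2169.5 ± 299 to 17015 ± 337 TPM, one of the highest levels reached by any gene that rose. Its relatives did not follow as a group: Prdx6 rose from 166 ± 9.89 to 1005 ± 36.3 TPM, Prdx4 of the endoplasmic reticulum fell from 292 ± 10.9 to 198 ± 15.6 TPM, and Prdx2 had 356 ± 17.4 TPM with DMSO and 345 ± 8.96 with Cardamonin, which did not pass (limma adjusted p = 0.306). Txnrd1, the cytosolic thioredoxin reductase, rose from 60.5 ± 7.27 to 416 ± 27 TPM, while the mitochondrial Txnrd2 fell from 5.36 ± 0.453 to 3.15 ± 0.446 TPM. Txnip, which binds and restrains thioredoxin, fell from 134 ± 15.9 to 82.4 ± 6.4 TPM, and the glutaredoxin Glrx fell from 244 ± 7.56 to 98.4 ± 16.8 TPM.

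Heme breakdown and iron storage rose strongly at the first steps. Of 12 genes, 10 rose and 1 fell (median 0.86); 6 rose under median-ratio scaling, 7 under quantile normalization and 8 when rescaled, with 1 fall each time. Hmox1 (ENSMUSG00000005413, chr8:75093621-75100589), heme oxygenase, read 11880.5, 11704 and 12634 TPM against 434, 524 and 617 TPM in DMSO, so every Cardamonin library exceeded the highest DMSO library many times over (difference 4.54 ± 0.08; limma adjusted p = 7.40e-24). Blvrb, a biliverdin reductase, rose from 92.8 ± 10.9 to 849 ± 81.1 TPM, whereas Blvra had 22.2 ± 1.34 TPM with DMSO and 22.9 ± 1.54 with Cardamonin and did not pass (limma adjusted p = 0.633). Ferritin light chain Ftl1 rose from 5501 ± 554 to 21031 ± 1451 TPM (57.7% of its words shared with other genes). The heme transporter Slc48a1 rose from 223 ± 9.5 to 828 ± 18.7 TPM and the transferrin receptor Tfrc from 6.87 ± 1.33 to 16.9 ± 0.392 TPM. Hmox2, the constitutive heme oxygenase, fell from 83.5 ± 4.53 to 53.3 ± 2.41 TPM.

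NADPH is the reductant that glutathione reductase and thioredoxin reductase consume. Of 9 genes that supply it, 8 rose and 1 fell (median 1.13). The pentose phosphate enzymes Taldo1, G6pdx, Pgd and Tkt rose from 85.2 ± 6.52 to 689.7 ± 60.4 TPM, from 45.1 ± 3.18 to 223 ± 19 TPM, from 229 ± 11.8 to 900.1 ± 40.5 TPM and from 99.8 ± 2.98 to 219 ± 11.3 TPM. G6pdx, the entry enzyme, read 218, 207 and 244 TPM in Cardamonin against 41.5, 44 and 50.2 TPM in DMSO, with no overlap. Malic enzyme Me1 rose from 60.9 ± 4.63 to 171 ± 3.21 TPM, and Rpia, a ribose isomerase, fell from 11.8 ± 1.07 to 8.68 ± 0.506 TPM.

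Enzymes that reduce or oxidise quinones, carbonyls and aldehydes rose broadly: of 18 tested (of 19), 15 rose and 2 fell, median 1.26. Adh7 (ENSMUSG00000055301, chr3:138217760-138233382), an alcohol and retinol dehydrogenase, read 359.7, 361 and 446 TPM against 14.8, 18.3 and 25.9 TPM. Its difference of 4.31 ± 0.10 was the largest in the list. Aldh3a1, an aldehyde dehydrogenase, rose from 36.6 ± 8.11 to 529 ± 69.3 TPM, Nqo1, the quinone reductase, from 90.9 ± 9.63 to 874 ± 75.7 TPM, and Ephx1, the microsomal epoxide hydrolase, from 248 ± 14.5 to 869.7 ± 59.6 TPM. Akr1c18 (ENSMUSG00000021214, chr13:4132615-4150654), a hydroxysteroid dehydrogenase outside the list, read 66.6, 63.8 and 70.7 TPM against 2.38, 2.97 and 3.62 TPM. Cbr2 was the main exception and fell from 294 ± 25.8 to 65.7 ± 15.5 TPM. Of 7 efflux transporters that were tested (of 8), 5 rose and 0 fell on the deposited scale, while 2 fell under median-ratio scaling and under quantile normalization. Abcc1 and Abcc4, which export glutathione conjugates and organic anions, rose from 29.9 ± 2.94 to 252 ± 13.3 TPM and from 11.9 ± 1.37 to 120.3 ± 1.24 TPM. Abcb1a averaged 0.44 ± 0.112 TPM with DMSO and 5.25 ± 0.37 with Cardamonin.

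Direct scavengers went largely the other way. Among catalase, superoxide dismutases and glutathione peroxidases, 9 of 10 genes were tested, and 2 rose and 6 fell (median -1.04). Catalase (Cat) rose from 101 ± 6.08 to 338 ± 18.4 TPM and the cytosolic Sod1 from 475 ± 17.4 to 788 ± 58.6 TPM. The mitochondrial Sod2 fell from 204 ± 5.69 to 103 ± 15.6 TPM, the extracellular Sod3 from 192 ± 14.5 to 78.9 ± 13.8 TPM, the secreted peroxidase Gpx3 from 1444 ± 43.4 to 305 ± 94.3 TPM and the intracellular Gpx1 from 314 ± 17.8 to 152 ± 2.17 TPM. Gpx3 read 321, 389.6 and 203 TPM in the Cardamonin libraries against 1403, 1438 and 1494 TPM in DMSO, without overlap. Gpx4, which reduces lipid peroxides in membranes, had 476 ± 41.3 TPM with DMSO and 504 ± 29.1 with Cardamonin and did not pass (limma adjusted p = 0.201).

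Promoters of 3 genes that rose are shown because each holds the core of an antioxidant response element, TGACNNNGC, within the RefSeq window of 250 bases before to 50 after the transcription start (GRCm38.p6; both strands searched). Each stretch of 120 bases runs 5′ to 3′ on the strand of the gene, and capitals mark the match. Prdx1 (chr4:116685410-116685529, plus strand) has it 124 bases before the start, G6pdx (chrX:74428881-74429000, minus strand) 48 bases before and Gsta3 (chr1:21240408-21240527, plus strand) 112 bases before.
Prdx1: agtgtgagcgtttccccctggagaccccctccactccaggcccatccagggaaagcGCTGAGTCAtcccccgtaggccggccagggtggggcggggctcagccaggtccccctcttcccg
G6pdx: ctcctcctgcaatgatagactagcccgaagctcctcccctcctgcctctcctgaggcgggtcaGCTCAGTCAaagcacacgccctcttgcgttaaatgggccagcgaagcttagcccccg
Gsta3: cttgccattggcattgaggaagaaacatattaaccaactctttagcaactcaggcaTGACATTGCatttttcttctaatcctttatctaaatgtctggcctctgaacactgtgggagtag
This core occurred in 14.1% of the 12356 windows of tested genes and in 16.9% of the 686 windows of genes that rose at least 2-fold. By list, it occurred in 2 of 7 windows of glutathione synthesis and cystine uptake and in 4 of 29 of glutathione S-transferases. Thioredoxin genes had it in 3 of 20 windows, and the quinone, carbonyl and aldehyde enzymes in 0 of 16. A match describes the letters only.

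**Figure D3:**
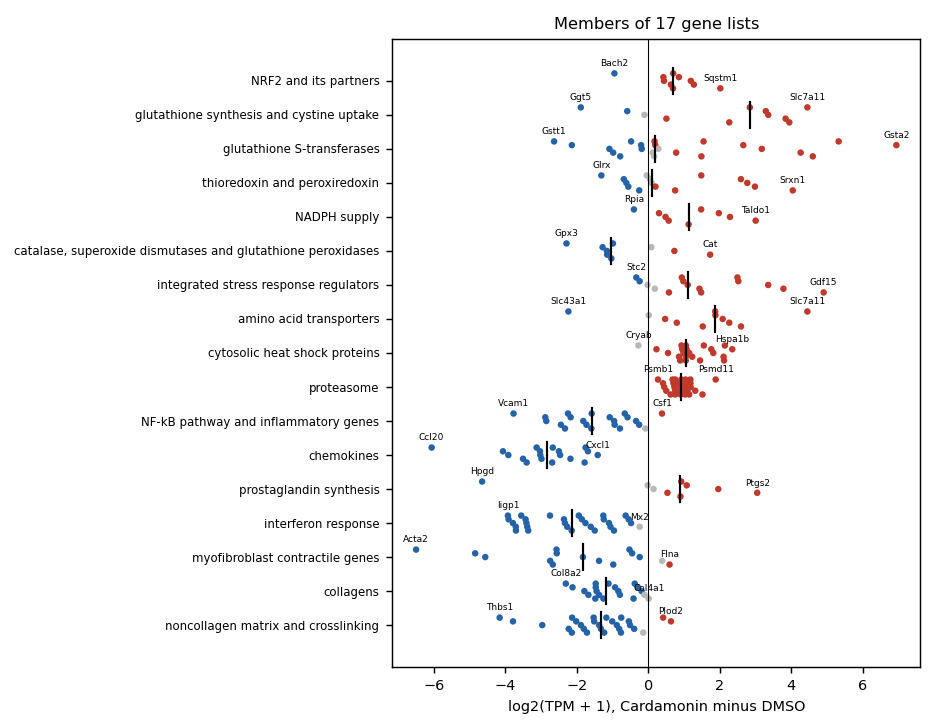
Difference between Cardamonin and DMSO (horizontal axis, log2(TPM + 1)) for each tested member of 17 gene lists, 1 point per gene, red where it rose, blue where it fell and grey where it did not pass; black lines are list medians and the outermost genes are named. Medians of glutathione synthesis, amino acid transporters, heat shock proteins and the proteasome lie right of 0, those of chemokines, interferon genes, contractile genes and collagens lie left, and glutathione S-transferases reach from Gstt1 to Gsta2.

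Genes of the integrated stress response also rose. Of 15 regulators tested (of 16), 11 rose and 2 fell (median 1.10). Atf4 itself rose from 134 ± 6.52 to 288 ± 10.7 TPM, and the related factors Atf5 and Atf3 rose from 82.3 ± 2.83 to 477 ± 39.8 TPM and from 5.4 ± 1.16 to 34.6 ± 2.15 TPM. Ddit3, which encodes CHOP, rose from 84.2 ± 6.52 to 229.8 ± 35.3 TPM. Trib3, a pseudokinase that restrains ATF4, read 72.2, 69.9 and 76.5 TPM against 3.05, 4.68 and 4.97 TPM in DMSO, and Ppp1r15a, which directs the removal of the phosphate from eIF2α, rose from 40.7 ± 2.53 to 78.8 ± 6.46 TPM. Gdf15 (ENSMUSG00000038508, chr8:70629393-70632456), a secreted stress cytokine, read 186, 171 and 182 TPM in the 3 Cardamonin libraries and at most 5.92 TPM in DMSO. Its difference was 4.90 ± 0.09 (limma adjusted p = 7.58e-24). Members that ATF4 is also known to raise but that did not rise were Ddit4, with 56.5 ± 10.9 TPM with DMSO and 63.9 ± 11.2 with Cardamonin (limma adjusted p = 0.171), and Nupr1, which fell from 255 ± 11.5 to 215 ± 9.77 TPM.

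Amino acid transporters and synthesis genes rose too. Of 11 amino acid transporters 9 rose and 1 fell (median 1.87): Slc7a5, the large neutral amino acid exchanger, rose from 6.83 ± 1.34 to 31.7 ± 0.647 TPM, the cationic transporter Slc7a1 from 2.42 ± 0.378 to 11.5 ± 0.43 TPM, the serine and alanine transporter Slc1a4 from 13.3 ± 0.944 to 85 ± 4.71 TPM and the glycine transporter Slc6a9 from 24.8 ± 2.98 to 93 ± 6.01 TPM. Slc43a1, another large neutral amino acid transporter, fell from 11.7 ± 1.02 to 1.73 ± 0.613 TPM. Of 11 genes for serine, proline and asparagine synthesis, 9 rose and 1 fell. Asns, asparagine synthetase, rose from 29.2 ± 2.93 to 97 ± 8.03 TPM, the serine pathway enzymes Phgdh and Psat1 rose from 12.8 ± 0.974 to 29.2 ± 3.46 TPM and from 7.34 ± 0.561 to 29.4 ± 1.87 TPM, and the mitochondrial folate enzyme Mthfd2 rose from 6.62 ± 2.06 to 40.7 ± 3.14 TPM. Pycr1, the last enzyme of proline synthesis, was the exception and fell from 17.2 ± 2.11 to 7.24 ± 1.81 TPM. Of 20 cytosolic aminoacyl-tRNA synthetases, 18 rose and 0 fell (median 0.81), or 15 and 2 under quantile normalization, with the largest rises in Aars (from 39.7 ± 3.83 to 165 ± 14.1 TPM), Cars (from 31.2 ± 3.07 to 89.8 ± 4.09 TPM) and Nars (from 87.3 ± 2.49 to 209.7 ± 14.4 TPM). Kars and Qars did not pass, with differences of 0.00 and -0.24, and Hars changed sign to -0.02 under quantile normalization, so its small rise of 0.09 is not a firm one.

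Promoters of 3 genes of this group hold the C/EBP-ATF element TGATGNAA, to which ATF4 dimers are known to bind, and are shown for that reason (RefSeq, GRCm38.p6, 5′ to 3′ on the strand of the gene; capitals mark each match on either strand). They are those of Slc7a11 (chr3:50443614-50443733, minus strand), where the nearer of 2 matches ends 39 bases before the start, Chac1 (chr2:119350993-119351112, plus strand), 185 bases before, and Aars (chr8:111033674-111033793, plus strand), 104 bases before.
Slc7a11: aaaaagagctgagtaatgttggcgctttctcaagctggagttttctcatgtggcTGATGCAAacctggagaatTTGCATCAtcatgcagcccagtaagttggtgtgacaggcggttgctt
Chac1: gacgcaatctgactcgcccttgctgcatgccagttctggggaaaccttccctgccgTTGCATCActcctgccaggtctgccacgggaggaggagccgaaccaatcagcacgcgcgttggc
Aars: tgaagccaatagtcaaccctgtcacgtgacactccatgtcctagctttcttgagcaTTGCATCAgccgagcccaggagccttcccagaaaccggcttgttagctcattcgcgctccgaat
The element occurred in 2.28% of the 12356 windows of tested genes and in 5 of the 12 windows of tRNA synthetases (41.7%).

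Heat shock genes rose nearly throughout. Of 22 heat shock genes, 21 rose and 0 fell (median 1.06). The list is mainly of cytosolic chaperones but includes Hspd1 and Hspe1, which encode mitochondrial ones. The inducible HSP70 genes Hspa1b and Hspa1a, which share 68.0% and 65.4% of their words with other genes and so are uncertain in their split, rose from 22.2 ± 4.25 to 116 ± 7.07 TPM and from 6.45 ± 1.38 to 20.6 ± 1.25 TPM. The nucleotide exchange factor Hsph1 rose from 23.1 ± 2.14 to 103 ± 4.95 TPM, the inducible HSP90 gene Hsp90aa1 from 210.2 ± 17.9 to 714 ± 54.8 TPM, and the small heat shock protein Hspb1 from 120.1 ± 10.8 to 518 ± 22 TPM. Cryab, a small heat shock protein as well, had 9.66 ± 2.82 TPM with DMSO and 7.52 ± 0.393 with Cardamonin and did not pass (limma adjusted p = 0.243). The element bound by heat shock factor (GAA, any 2 bases, TTC, any 2 bases and GAA, on both strands) occurred in 5 of 23 promoter windows of this list (21.7%) and in 0.469% of windows of tested genes. The 5 windows belonged to 4 of the 17 genes with a window: 2 were of Hsph1 and 1 each of Chordc1, Hspd1 and Hspe1. Windows of Hspa1a and Hspa1b held no match.

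All 31 proteasome genes tested rose, with a median difference of 0.92 and a range from 0.27 for Psmb1 to 1.88 for Psmd11. Psmd11 and Psmd14, subunits of the regulatory particle, rose from 67.4 ± 5.97 to 250.5 ± 3.8 TPM and from 70.04 ± 3.48 to 202 ± 5.12 TPM, and the catalytic subunits Psmb5, Psmb6 and Psmb7 rose from 116 ± 14 to 219.6 ± 16.9 TPM, from 168 ± 14.2 to 268 ± 21.6 TPM and from 116 ± 5.16 to 188 ± 5.0 TPM. These subunits form the constitutive proteasome; the 3 catalytic subunits that replace them in the immunoproteasome fell, as given with antigen presentation. Nfe2l1, whose product NRF1 is known to raise proteasome genes, rose from 189 ± 11.9 to 342 ± 8.65 TPM. Of 21 genes of the unfolded protein response of the endoplasmic reticulum, 17 rose and 2 fell, but by less (median 0.55). Hspa5, the chaperone BiP, rose from 682 ± 23.5 to 996 ± 59.9 TPM, Hyou1 from 56.1 ± 1.52 to 114 ± 3.57 TPM and Canx, calnexin, from 266 ± 8.11 to 568 ± 17.2 TPM, while Xbp1, a transcription factor of this response, fell from 132 ± 6.47 to 102 ± 10.9 TPM. Of 19 autophagy and lysosome genes, 13 rose and 5 fell; beside Sqstm1 the largest rises were Mcoln1, a lysosomal calcium channel (from 79.7 ± 4.0 to 160.4 ± 13.4 TPM), and the protease Ctsd (from 1989 ± 40.9 to 3616 ± 281 TPM), and Wipi1, an autophagosome protein, fell from 118 ± 7.33 to 65.7 ± 5.26 TPM.

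**Figure D4:**
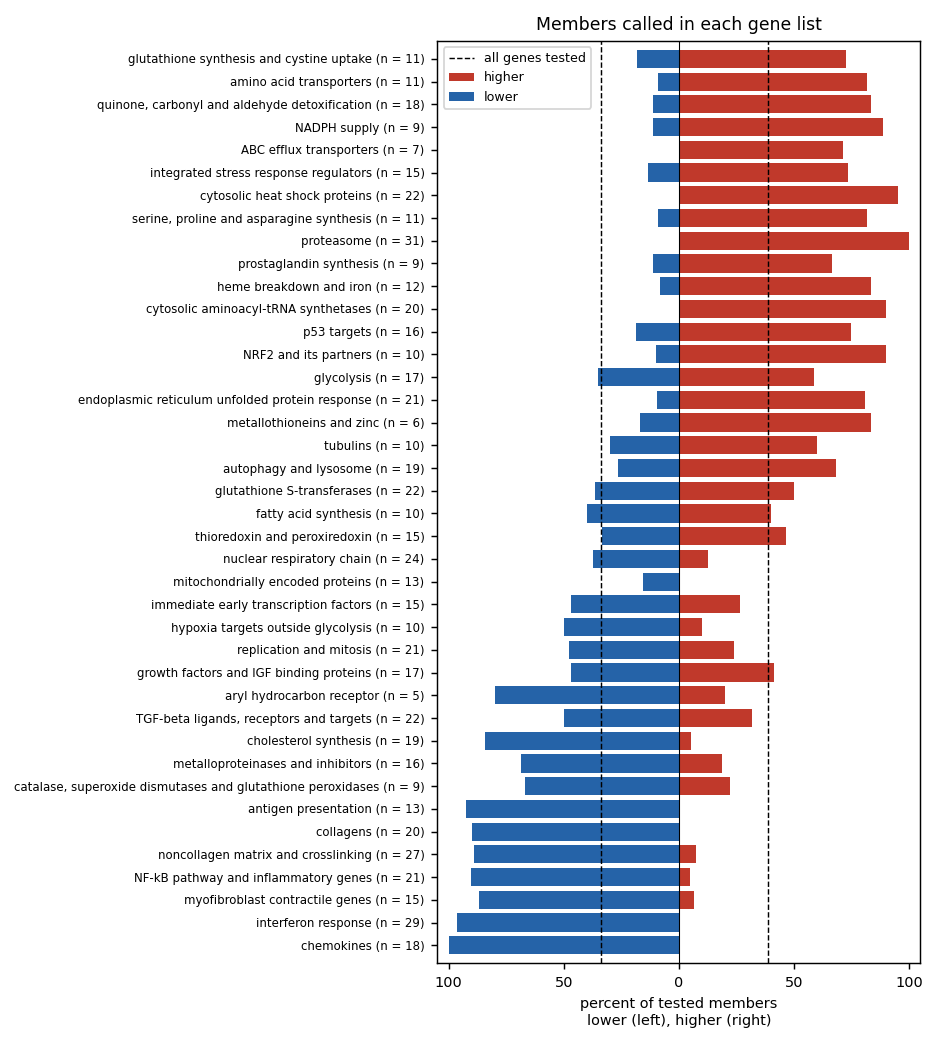
Percent of tested members of each of 40 gene lists that rose (red, right) or fell (blue, left) in Cardamonin against DMSO, ordered by median difference, with the number tested in parentheses; dashed lines mark the shares over all tested genes, 38.8% higher and 33.7% lower. The proteasome reaches 100% on the right and the chemokines 100% on the left.

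Chemokines fell as a whole. All 18 fell at least 2-fold, with a median difference of -2.84. The monocyte attractants Ccl2 and Ccl7 fell from 4659 ± 275 to 534 ± 67 TPM and from 2093 ± 123 to 198 ± 28 TPM, and Ccl5 fell from 3666 ± 476 to 446 ± 49.5 TPM. The neutrophil attractants Cxcl5 and Cxcl2 fell from 7852 ± 663 to 710.3 ± 209 TPM and from 22.7 ± 2.32 to 1.98 ± 0.264 TPM. Cxcl5 read 871, 785 and 474 TPM in the Cardamonin libraries against 7038, 7848 and 8632 TPM (lowest, median, highest) in DMSO, so even its lowest DMSO library was far above every treated one. Cxcl1 fell least (from 1423 ± 51.3 to 536 ± 85.8 TPM), and Cxcl12, the homeostatic ligand of CXCR4, fell from 914 ± 69.8 to 143 ± 34.2 TPM. Ccl20 (ENSMUSG00000026166, chr1:83116766-83119167), the ligand of the receptor CCR6, read 0.287, 0.0843 and 0.22 TPM in Cardamonin against 62.7, 79.2 and 95.5 TPM in DMSO; it entered the comparison through DMSO alone.

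NF-kB genes and acute-phase products fell too. Of 21 tested genes of this list (of 23), 1 rose and 19 fell (median -1.59). Negative regulators that NF-kB itself induces were among the falls: Tnfaip3, which encodes A20, fell from 20.9 ± 2.11 to 2.03 ± 0.439 TPM, and Nfkbia, which encodes IκBα, from 145 ± 4.91 to 43.1 ± 3.42 TPM. The subunit genes Nfkb1, Nfkb2 and Relb fell from 103 ± 2.38 to 53.3 ± 1.25 TPM, from 48.3 ± 4.03 to 24.3 ± 1.17 TPM and from 49.2 ± 4.79 to 22.6 ± 0.461 TPM, whereas Rela had 67.7 ± 3.18 TPM with DMSO and 63.7 ± 1.26 with Cardamonin and did not pass (limma adjusted p = 0.184). Among secreted products Il6 fell from 14.6 ± 3.25 to 1.96 ± 1.17 TPM, Saa3, serum amyloid A, from 32372 ± 2519 to 4509 ± 1285 TPM, Lcn2, lipocalin, from 2416 ± 250.2 to 480.5 ± 74.9 TPM and complement C3 from 1086 ± 113 to 227 ± 12 TPM. The adhesion molecule Vcam1 read 37.1, 40.3 and 22.2 TPM against 390.4, 459 and 511 TPM, the largest fall of the list. Csf1, the macrophage growth factor, was the 1 gene that rose, from 553 ± 57.6 to 717 ± 10.1 TPM. Ptx3 (ENSMUSG00000027832, chr3:66219910-66225805), a pattern-recognition pentraxin, read 42, 37.8 and 26.8 TPM against 646, 726 and 838 TPM, and Serpina3g (ENSMUSG00000041481, chr12:104236245-104241939), a protease inhibitor with 28.4% of its words shared, 11.4, 10.8 and 5.93 TPM against 211, 250.5 and 269 TPM.

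Interferon-responsive genes fell nearly throughout. Of 29, 0 rose and 28 fell, with a median of -2.15; 24 of the falls were at least 2-fold. Ifit1, an RNA-binding antiviral protein, read 5.56, 2.95 and 4.47 TPM in the Cardamonin libraries against 44.8, 72.2 and 82.4 TPM in DMSO, and Isg15, a ubiquitin-like modifier, 8.66, 4.86 and 9.07 TPM against 70.1, 85.1 and 113 TPM. The groups did not overlap in either gene. The signal transducers Stat2 and Irf9, both parts of the interferon-stimulated factor, fell from 34.6 ± 4.62 to 13.9 ± 2.99 TPM and from 50.3 ± 6.05 to 23 ± 4.26 TPM, and Irf7 fell from 61.6 ± 8.9 to 8.29 ± 1.55 TPM. The guanylate-binding Gbp2 fell from 86.4 ± 12.9 to 7.05 ± 1.19 TPM and the immunity-related GTPase Iigp1 from 32.6 ± 5.51 to 1.21 ± 0.467 TPM. Mx2 did not pass, with 13.6 ± 2.47 TPM with DMSO and 11.3 ± 1.96 with Cardamonin (limma adjusted p = 0.163). Antigen presentation fell with them: of 13 genes 0 rose and 12 fell, median -1.16. The immunoproteasome subunits Psmb8, Psmb9 and Psmb10 fell from 69.2 ± 7.81 to 6.02 ± 1.26 TPM, from 27.9 ± 4.23 to 1.29 ± 0.392 TPM and from 29.8 ± 2.71 to 5.58 ± 0.705 TPM, opposite in direction to the constitutive subunits. The peptide transporter genes Tap1 and Tap2 fell from 30.9 ± 3.62 to 13.2 ± 1.8 TPM and from 55.4 ± 4.36 to 22.8 ± 2.2 TPM, and the class I light chain B2m from 4395 ± 395 to 2153 ± 77.6 TPM.

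Leukocyte markers moved with these genes. Of 8, 4 were tested: Adgre1 fell from 10.4 ± 1.05 to 1.91 ± 0.275 TPM and Lyz2 from 157 ± 17.8 to 84.2 ± 3.17 TPM (32.8% of its words shared), and Cd68 rose from 13.1 ± 1.46 to 33.1 ± 7.95 TPM. Csf1r, whose entry depended on DMSO, averaged 2.98 ± 0.277 TPM with DMSO and 0.888 ± 0.176 with Cardamonin. Summed over the 8 markers, the level was 110.1 to 129.7 TPM in Cardamonin and 154.7 to 210.9 TPM in DMSO. The defining markers Ptprc, Itgam and Cd79a stayed under 1 TPM in every library of both groups, and Cd3e was listed at 0 in all of them. In bulk RNA, fewer cells of a type and less RNA per cell cannot be told apart, and the part of these markers in the falls above was not tested.

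Promoters of 3 interferon-responsive genes are shown since each holds more than 1 copy of the interferon-stimulated response element (GAAA, any 2 bases and GAAA), and 2 chemokine promoters since each holds an NF-kB site (RefSeq, GRCm38.p6, 5′ to 3′ on the strand of the gene; capitals mark matches on either strand, and matches may overlap, as the 3 in Isg15 and the 2 in Cxcl2 do). The windows are Ifit1 (chr19:34640749-34640868, plus strand), Ifit3 (chr19:34583352-34583471, plus strand), Isg15 (chr4:156200820-156200939, minus strand), Ccl20 (chr1:83116631-83116750, plus strand) and Cxcl2 (chr5:90903748-90903867, plus strand).
Ifit1: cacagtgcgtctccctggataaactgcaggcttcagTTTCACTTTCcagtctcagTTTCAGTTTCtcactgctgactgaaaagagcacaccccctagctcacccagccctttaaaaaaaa
Ifit3: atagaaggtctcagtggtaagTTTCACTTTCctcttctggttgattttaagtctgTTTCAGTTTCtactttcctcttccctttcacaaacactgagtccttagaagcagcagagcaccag
Isg15: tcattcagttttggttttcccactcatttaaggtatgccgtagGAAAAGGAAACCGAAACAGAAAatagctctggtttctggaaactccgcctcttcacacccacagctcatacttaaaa
Ccl20: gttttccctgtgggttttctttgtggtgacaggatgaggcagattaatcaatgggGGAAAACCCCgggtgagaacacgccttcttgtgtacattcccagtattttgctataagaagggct
Cxcl2: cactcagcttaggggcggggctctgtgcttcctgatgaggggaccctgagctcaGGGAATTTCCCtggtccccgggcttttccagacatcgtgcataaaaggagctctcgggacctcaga
The interferon element occurred in 16 of 25 windows of the interferon list (64.0%) against 3.09% of windows of tested genes. The NF-kB site occurred in 6 of 11 chemokine windows (54.5%) against 10.4%. Ifit3 fell from 120.4 ± 26.6 to 7.78 ± 2.38 TPM, with 61.8% of its words shared with other genes.

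Prostaglandin genes stood apart from the other inflammatory genes. Of 9 tested (of 13), 6 rose and 1 fell (median 0.90). Ptgs2, the inducible cyclooxygenase, read 231, 241 and 178 TPM in Cardamonin against 21.8, 24.8 and 30.8 TPM in DMSO, a rise of 3.05 ± 0.09. Pla2g4a, the phospholipase that releases arachidonic acid, rose from 43.3 ± 3.68 to 170.5 ± 5.36 TPM, and the prostaglandin E synthase Ptges from 85.7 ± 6.29 to 163 ± 9.27 TPM. Hpgd (ENSMUSG00000031613, chr8:56294585-56321043), which inactivates prostaglandins, went down: it read 1.61, 1.56 and 1.03 TPM against 47.6, 60.8 and 67.8 TPM, a difference of -4.65 ± 0.10. Ptgs2, Pla2g4a and Ptges were higher in all 3 Cardamonin libraries than in any DMSO library. For Hpgd, named among the largest falls, the naming rule required that the groups did not overlap.

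Contractile genes of myofibroblasts fell in most cases. Of 15 tested (of 16), 1 rose and 13 fell (median -1.83). Acta2 (ENSMUSG00000035783, chr19:34241090-34255590), smooth muscle actin and the usual marker of the myofibroblast, read 1.84, 1.89 and 1.52 TPM in Cardamonin against 194, 248 and 323 TPM (lowest, median, highest) in DMSO, a difference of -6.50 ± 0.14 (limma adjusted p = 8.92e-23). Myl9 (ENSMUSG00000067818, chr2:156775420-156781658), a myosin regulatory light chain, read 3.38, 2.65 and 2.26 TPM against 89.9, 104 and 136 TPM, and Tagln (ENSMUSG00000032085, chr9:45929619-45936058), an actin-binding protein, 4.92, 6.48 and 3.22 TPM against 111, 134 and 164 TPM. All 3 were separated widely from DMSO. The calponin Cnn2 fell from 119 ± 16.7 to 19.1 ± 2.18 TPM, Vcl, vinculin, from 87.5 ± 10.9 to 23.7 ± 0.695 TPM, and the tropomyosins Tpm1 and Tpm2 from 648 ± 35.3 to 327 ± 11.6 TPM and from 96.2 ± 9.96 to 15.4 ± 1.24 TPM. The members that did not fall were Flna, filamin A, which rose from 285 ± 27.2 to 428 ± 13.2 TPM, and Zyx, zyxin, which had 48.4 ± 13.6 TPM with DMSO and 61.3 ± 4.42 with Cardamonin without passing (limma adjusted p = 0.0785). Srf, the factor that binds CArG boxes, fell from 18.3 ± 2.06 to 13 ± 0.713 TPM.

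The promoters of 2 genes of this list hold a CArG box and are shown for it (RefSeq, GRCm38.p6, 5′ to 3′, capitals mark the box): Myl9 (chr2:156775248-156775367, plus strand), 151 bases before the start, and Cnn2 (chr10:79988480-79988599, plus strand), 46 bases before.
Myl9: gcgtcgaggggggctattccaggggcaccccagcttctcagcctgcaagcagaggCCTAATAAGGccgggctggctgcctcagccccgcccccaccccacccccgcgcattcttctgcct
Cnn2: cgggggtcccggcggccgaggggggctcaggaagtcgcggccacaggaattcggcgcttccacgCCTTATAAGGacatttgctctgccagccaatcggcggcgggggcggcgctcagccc
The box occurred in 4 of 14 windows of the contractile list (28.6%) and in 1.33% of windows of tested genes.

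Signals and receptors that act on the myofibroblast were mixed. Of 22 genes for TGF-beta ligands, receptors and targets, 7 rose and 11 fell (median -0.36). The ligands Tgfb1 and Tgfb2 rose from 57.5 ± 3.83 to 114 ± 0.418 TPM and from 13.1 ± 0.89 to 26.9 ± 1.42 TPM while Tgfb3 fell from 43.2 ± 4.34 to 13.4 ± 0.762 TPM, and the receptor Tgfbr1 rose from 22.4 ± 2.73 to 40.6 ± 0.634 TPM. Targets fell hardest: Ccn2 (ENSMUSG00000019997, chr10:24595442-24598683), connective tissue growth factor, read 1.68, 4.0 and 0.634 TPM against 103, 126 and 167 TPM, and Ccn1 (ENSMUSG00000028195, chr3:145646976-145649981) 10.9, 10.3 and 7.75 TPM against 156, 222 and 263 TPM. The 3 Cardamonin values of Ccn2 spread over several-fold but none came near DMSO. Id1, a target of BMP signalling, rose from 19.3 ± 4.99 to 45 ± 4.81 TPM. Agtr1a (ENSMUSG00000049115, chr13:30336441-30382867), the angiotensin receptor, read 1.13, 1.27 and 0.523 TPM against 66.2, 79.4 and 96.2 TPM, and Ednrb (ENSMUSG00000022122, chr14:103814625-103844402), an endothelin receptor, moved the other way with 59.6, 64.8 and 71.8 TPM against 0.76, 1.07 and 2.13 TPM. Slc1a3 (ENSMUSG00000005360, chr15:8634124-8710764), a glutamate transporter, read 1.58, 2.1 and 0.91 TPM against 39.8, 47.4 and 53.8 TPM, and Plscr2 (ENSMUSG00000032372, chr9:92275602-92297752), a phospholipid scramblase, 1.13, 1.33 and 1.16 TPM against 34.3, 41.7 and 50.4 TPM.

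Matrix genes fell together. Of 20 collagens 0 rose and 18 fell (median -1.19). The fibrillar Col1a1, Col1a2 and Col3a1 fell from 999 ± 169.7 to 366 ± 69.7 TPM, from 1671 ± 158 to 603 ± 83.1 TPM and from 2726 ± 198 to 1273 ± 260.2 TPM. Basement membrane Col4a1 and Col4a2 did not pass, with differences of 0.01 and -0.11. Of 27 genes for other matrix proteins and for crosslinking, 2 rose and 24 fell (median -1.33). Thbs1, thrombospondin, read 45.9, 57.9 and 29.2 TPM in Cardamonin against 657, 726 and 999 TPM in DMSO, and Tnc, tenascin C, 11.1, 19.96 and 4.62 TPM against 143, 154 and 167 TPM. The crosslinking enzyme Lox fell from 1628 ± 137 to 409 ± 101 TPM, Sparc from 2171 ± 129 to 504 ± 123 TPM and fibronectin (Fn1) from 4776 ± 563 to 2828 ± 433 TPM. The collagen-modifying Plod2 and P4ha1 rose from 87.9 ± 8.4 to 136 ± 7.39 TPM and from 138 ± 9.43 to 183 ± 10.2 TPM. Of 16 metalloproteinases and their inhibitors, 3 rose and 11 fell (1 rose under median-ratio scaling): Mmp13, Mmp9 and Timp3 fell from 1274 ± 112 to 491 ± 116 TPM, from 243 ± 22.5 to 62.2 ± 7.9 TPM and from 158 ± 14.3 to 32.9 ± 6.76 TPM, and Mmp12 rose from 26.6 ± 3.87 to 60.03 ± 4.68 TPM.

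All 12 fibroblast markers fell as well, a list that shares Col1a1, Col1a2 and Col3a1 with the collagens. Their summed level was 4821 to 5990 TPM in the Cardamonin libraries and 11981 to 13570 TPM in DMSO. The receptors Pdgfra and Pdgfrb fell from 212 ± 10.6 to 121 ± 16.4 TPM and from 113 ± 5.24 to 45.8 ± 8.03 TPM, Thy1 from 239 ± 16.5 to 98.3 ± 15.1 TPM and Vim, vimentin, from 2542 ± 231 to 1349 ± 52.7 TPM. Sums for other cell types were small beside these: adipocyte markers summed to 86.5 to 137.6 TPM against 172.4 to 209.5 TPM in DMSO, cartilage and bone markers to 16.1 to 20.7 TPM against 22.2 to 29.7 TPM, endothelial markers to 2.23 to 2.93 TPM against 6.13 to 9.86 TPM, and melanocyte and Schwann markers to 36.9 to 39.7 TPM against 30.1 to 39.3 TPM, the last with overlapping ranges. The part of any of these in the matrix falls was not tested.

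Growth and cell cycle genes changed in part. Of 21 replication and mitosis genes tested (of 27), 5 rose and 10 fell. Ccnd1, cyclin D1, fell from 32.7 ± 6.41 to 6.97 ± 0.602 TPM and Cdk1 fell from 31.6 ± 0.798 to 9.54 ± 1.08 TPM, while Mcm7, a helicase subunit with 26.8% of its words shared, and Pcna rose from 26 ± 2.13 to 77.4 ± 5.5 TPM and from 49 ± 2.75 to 107 ± 7.6 TPM. Of 16 p53 targets 12 rose and 3 fell (median 0.78): Mdm2, the ubiquitin ligase of p53, rose from 115 ± 15.2 to 374 ± 14.6 TPM and Cdkn1a, the inhibitor p21, from 437 ± 29 to 782 ± 21.8 TPM, but the sestrin Sesn1 fell from 30.5 ± 1.37 to 6.3 ± 0.93 TPM and the death receptor Fas from 86.9 ± 7.97 to 23.3 ± 3.09 TPM. Of 17 growth factors and IGF-binding proteins tested (of 18), 7 rose and 8 fell. Vegfa, the endothelial growth factor, rose from 84.1 ± 11.4 to 219.6 ± 7.94 TPM, while Igf1 fell from 22.5 ± 4.71 to 6.06 ± 1.98 TPM, Igfbp5 from 204 ± 27.7 to 12.9 ± 4.57 TPM and Vegfc from 49.4 ± 3.49 to 9.33 ± 2.91 TPM. Areg, amphiregulin, averaged 0.179 ± 0.131 TPM with DMSO and 7.05 ± 1.29 with Cardamonin. Of 15 immediate early genes 4 rose and 7 fell, with Fosl1 rising from 31.6 ± 2.79 to 122 ± 8.64 TPM and Fos falling from 11.7 ± 4.35 to 5.19 ± 1.99 TPM.

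Among lipid and energy genes, those of cholesterol synthesis fell and those of glycolysis were mixed. Of 19 cholesterol synthesis genes 1 rose and 16 fell (median -0.46). Hmgcs1, an early enzyme, fell from 55.6 ± 5.66 to 22 ± 0.894 TPM and Idi1 from 27.2 ± 2.74 to 12.5 ± 0.572 TPM. Of 17 glycolysis genes 10 rose and 6 fell: the glucose transporter Slc2a1 rose from 107 ± 17.3 to 354 ± 15.7 TPM, hexokinase Hk2 from 19.9 ± 3.53 to 55.7 ± 3.67 TPM and pyruvate kinase Pkm from 1248 ± 123 to 2891 ± 157 TPM, but Ldha, lactate dehydrogenase, fell from 579.8 ± 57.1 to 304 ± 52.9 TPM and Pfkfb3 from 23.6 ± 2.7 to 8.37 ± 2.14 TPM. Of 10 other hypoxia targets 1 rose and 5 fell, with Adm, adrenomedullin, falling from 256 ± 44.6 to 66 ± 2.42 TPM. Counts for mitochondrial genes depended on scaling. Of 13 encoded in the mitochondrion 0 rose and 2 fell (median -0.09, which turned to 0.08 under quantile normalization), and 5 fell under median-ratio scaling. Of 24 nuclear genes of the respiratory chain 3 rose and 9 fell (median -0.08), and 12 fell under median-ratio scaling and 14 under quantile normalization. Of 10 fatty acid synthesis genes 4 rose and 4 fell, near the shares over all tested genes.

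Other stress readouts were more selective. Of 6 metallothionein and zinc genes 5 rose and 1 fell: Mt1 rose from 1121 ± 195 to 3344 ± 311 TPM, Mt2 from 2092 ± 133 to 3065 ± 103 TPM and Mt3 from 1.25 ± 0.952 to 28.5 ± 8.67 TPM. Of 5 aryl hydrocarbon receptor genes tested (of 7), 1 rose and 4 fell; Cyp1b1, a target of that receptor, fell from 84.1 ± 15.1 to 15.2 ± 3.96 TPM, its repressor Ahrr from 7.65 ± 1.01 to 1.7 ± 0.345 TPM, and Tiparp rose from 16.9 ± 3.19 to 30.4 ± 0.708 TPM. Of 10 tubulins tested (of 11), 6 rose and 3 fell, with Tuba4a and Tubb4b rising from 44.8 ± 3.96 to 161 ± 17 TPM and from 90.9 ± 5.3 to 211 ± 7.74 TPM, and Tuba1a and Tuba1b falling from 367 ± 30.6 to 258 ± 4.78 TPM and from 211 ± 19.8 to 143 ± 5.74 TPM (77.0% and 68.9% of their words shared).

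To find where Cardamonin differed from every other treatment, its mean was tested against each of the 8 other groups in the same fit. A gene was counted as set apart when all 8 differences had the same sign, were at least 2-fold and had an adjusted limma p below 0.05. There were 254 such genes, 1.96% of those tested, 91 higher (0.7%) and 163 lower (1.25%). By adjusted p alone, with no limit on fold, Cardamonin differed from Podofilox in 7789 genes (60%). Higher genes made up 35.8% of the genes set apart; under median-ratio scaling it was 40.6% (97 higher, 142 lower) and under quantile normalization 47.2% (101 higher, 113 lower). A pseudocount of 0.1 gave 409 genes set apart, 118 higher and 291 lower.

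Among the genes set apart upward, the 8 whose smallest difference from any group was largest were Gsta2, Mt3, Map7d2, Ecel1, Slc7a11, Nefm, Mfsd6 and Gsta1. Mt3 (ENSMUSG00000031760, chr8:94152607-94154146), a metallothionein best known from brain, read 25.7, 21.5 and 38.2 TPM in Cardamonin, and the highest mean of any other group was 3.46 TPM. Map7d2 (ENSMUSG00000041020, chrX:159414572-159498757), a microtubule-associated protein, read 8.65, 8.24 and 10.1 TPM where no other group mean exceeded 0.828 TPM. Ecel1 (ENSMUSG00000026247, chr1:87147655-87156521), a membrane peptidase, read 10.7, 13.3 and 15 TPM against at most 2.06 TPM. Nefm (ENSMUSG00000022054, chr14:68082590-68124846), the medium neurofilament protein of neurons, read 6.92, 5.78 and 6.66 TPM against at most 0.89 TPM. Mfsd6 (ENSMUSG00000041439, chr1:52656286-52727462) read 31.6, 31.4 and 37.2 TPM against at most 7.64 TPM. Map7d2, Ecel1 and Nefm entered the comparison through Cardamonin alone, and the entry of Gsta2 also depended on it. For these genes the entry rule fixed the contrast with DMSO. All 8 genes were picked by their contrasts with the other groups, so the levels given here are a description. For Gsta1, Gsta2 and Slc7a11 the next highest group was AEG 3482, with 27.7 ± 4.05, 16.3 ± 5.92 and 103 ± 9.56 TPM. AEG 3482 was also next highest for Mt3, Map7d2, Nefm and Mfsd6, and Podofilox was for Ecel1.

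Downward, the genes named were Aspn, Amotl2, Ccn1, Angptl7, Tnc, Mfap5 and Hpgd. Aspn (ENSMUSG00000021388, chr13:49544443-49567565), asporin, a small proteoglycan of the matrix, read 1.72, 1.25 and 1.2 TPM in Cardamonin while the lowest mean of any other group was 19.9 TPM. Angptl7 (ENSMUSG00000028989, chr4:148495183-148500460), a secreted angiopoietin-like protein, read 1.91, 1.93 and 1.22 TPM against at least 14.6 TPM. Amotl2 (ENSMUSG00000032531, chr9:102716672-102733418), an angiomotin of the Hippo pathway, read 7.13, 7.0 and 3.95 TPM against at least 50.4 TPM elsewhere. Mfap5 (ENSMUSG00000030116, chr6:122505845-122529290), a microfibril protein, read 98.3, 117 and 74.4 TPM against at least 513 TPM. Matrix genes outside the collagens and contractile genes recur here: 6 of 27 and 4 of 15 were set apart downward, as were 8 of the 29 interferon genes. Of the 20 collagens, the 12 fibroblast markers and the 16 metalloproteinases and inhibitors, 0 were set apart.

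**Figure D5:**
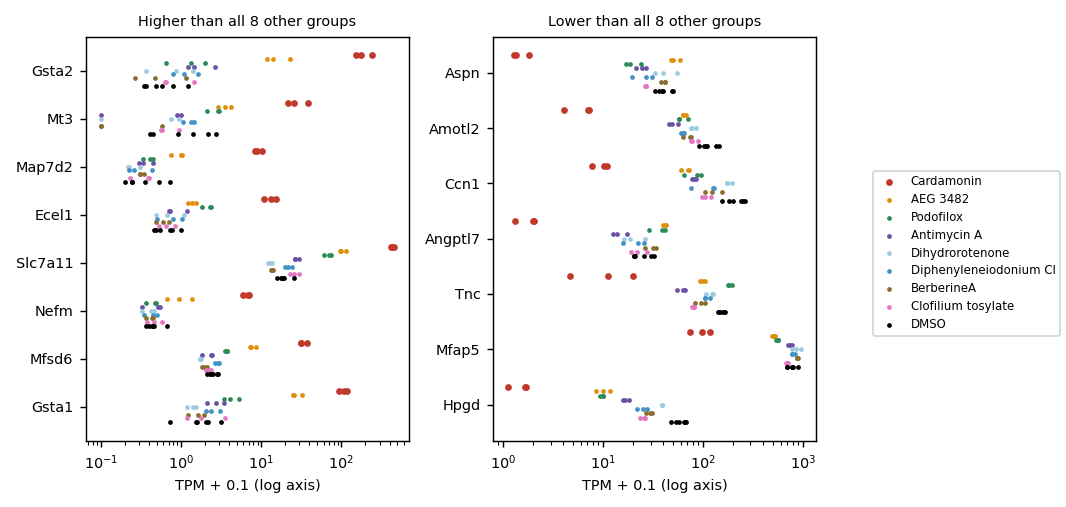
Level (TPM + 0.1, log axis) in all 9 groups of the 8 genes set apart upward (left) and 7 set apart downward (right), 1 point per library, with Cardamonin in red, DMSO in black and the other compounds as in the key. Red points lie beyond all others in every gene. AEG 3482 has the next highest mean in each upward gene except Ecel1, where Podofilox has it.

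AEG 3482 had the next highest mean of every gene named as set apart upward except Ecel1, and Cardamonin was compared with it directly, without DMSO. The groups differed in 7464 genes (57.5%), 3081 higher in Cardamonin (23.7%) and 4383 lower (33.7%), and in 897 by at least 2-fold (6.9%). The balance depended on scaling: genes higher in Cardamonin were 41.3% of the differing genes on the deposited scale, 50.04% when median-ratio factors were used, 51.4% with quantile normalization and 46.1% when libraries were rescaled on all but their 20 most abundant genes. Counts for lists below are given as deposited.

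NRF2-linked lists differed from AEG 3482 in both directions. Of 11 glutathione synthesis genes 8 were above and 2 below, and of 18 detoxification enzymes 14 above and 1 below. Heme and iron genes had 8 of 12 above and 1 below, NADPH genes 6 of 9 above and 1 below, and efflux transporters 7 of 7 above. Glutathione S-transferases were divided, 10 of 22 above and 8 below, and thioredoxin genes had 4 of 15 above and 7 below. The thioredoxin balance depended on scaling, with 5 above and 4 below under median-ratio scaling and 4 and 4 under quantile normalization. Of catalase, superoxide dismutases and glutathione peroxidases, 3 of 9 were above and 6 below. Slc7a11 differed by 2.07 ± 0.12 (limma adjusted p = 1.11e-13), Gclc by 1.17 ± 0.08, Gsta4 by 0.99 ± 0.09 and Hmox1 by 0.74 ± 0.10. Some genes of these lists did not pass: Srxn1 had 1347 ± 104 TPM in AEG 3482 and 1466 ± 45.5 TPM in Cardamonin, a difference of 0.12 ± 0.08 (limma adjusted p = 0.178), and Txnrd1 399 ± 4.16 and 416 ± 27 TPM, a difference of 0.06 ± 0.09 (limma adjusted p = 0.599). Several other stress lists were mostly higher, with 9 of 15 integrated stress response regulators above and 1 below, 15 of 20 tRNA synthetases above and 0 below, 15 of 22 heat shock genes above and 3 below, and 23 of 31 proteasome genes above and 0 below. The p53 targets went the other way, 3 of 16 above and 11 below. Trib3 differed by 2.88 ± 0.11 and Gdf15 by 1.57 ± 0.10. Hspa1b differed by -0.75 ± 0.15 and the HSP40 gene Dnajb1 by -0.21 ± 0.06.

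Among the lists that fell, the 2 compounds compared differently from list to list. Of the chemokines 2 of 18 were above AEG 3482 and 4 below, and Ccl20 averaged under 1 TPM in both, 0.303 ± 0.0944 TPM in AEG 3482 and 0.197 ± 0.103 TPM in Cardamonin (difference -0.12 ± 0.15, limma adjusted p = 0.504). Interferon genes were lower in Cardamonin, 24 of 29 below and 0 above; Isg15 had 39.1 ± 4.99 TPM in AEG 3482 against 7.53 ± 2.33 TPM in Cardamonin, and Ifit1 28.9 ± 4.07 against 4.32 ± 1.31 TPM. Collagens were lower in 17 of 20 genes and the other matrix genes in 23 of 27, with 0 above in either list. Col1a1 had 878 ± 150.3 TPM in AEG 3482 against 366 ± 69.7 TPM in Cardamonin, and Thbs1 517 ± 43.6 against 44.3 ± 14.4 TPM. Cholesterol synthesis showed the same sign, 18 of 19 below and 0 above, with Hmgcs1 at 48.9 ± 1.5 TPM in AEG 3482 against 22 ± 0.894 TPM. Metalloproteinases did not, with 9 of 16 above and 6 below.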

How the data were processed

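RNA-seq of 9 libraries, 3 with Cardamonin and 6 with DMSO, was analysed within the 30 libraries of the series. The deposited values are TPM; kallisto 0.43.1, FastQC and the mm10 build are named in the submitters' processing notes. TPM keeps no read number, so the depth of each library is unknown and no counting interval is given. DMSO has 6 labelled libraries, although the series text mentions 5. Gene names, positions and biotypes came from GENCODE M21 (GRCm38), and promoter windows from RefSeq (GRCm38.p6).

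From the authors' TPM, log2(TPM + 1) was fitted with limma 3.58.1 in R 4.3.3, with an intensity trend, 1 mean per group over all 30 libraries, and Benjamini-Hochberg adjustment over the 12991 genes. Fitting all groups shares 1 estimate of the spread. The fit was tested on simulated data. Genes named are the 12 largest rises and 12 largest falls among non-overlapping genes whose higher group averaged 5 TPM or more, the 8 genes set apart in each direction under the same level, and members of the gene and marker lists. Some genes that meet these rules are not reported here. Members and lists were chosen with earlier results of these data known. Shared sequence is the percent of a gene's 31-base words, over all its transcripts, that occur in another gene.

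Alternatives were a pseudocount of 0.1, no filter or a mean of at least 5 TPM, median-ratio scaling, quantile normalization, rescaling without the 20 most abundant genes, no intensity trend, protein-coding genes only, a replicate block, fits on the compared groups only, and leaving out each library.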

Additional observations from a re-analysis of the deposited data

Results flagged for a closer look

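For each gene named above and each marker sum, the 6 DMSO libraries were searched for 1 library standing apart, by the gap to its nearest neighbour over the whole range on the log2(TPM + 1) scale (Dixon's test). Of 245 sets of 6 values, 13 were flagged, and chance flags about 1 in 20.

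Replicate 4 of DMSO stood apart in 6 of the 13. It was the highest library for Aldh3a1 at 52.2 TPM (DMSO median 34.4), Gsr at 28.0 TPM (median 23.3), Tgfbr1 at 27.7 TPM (median 21.7) and Nefm at 0.570 TPM (median 0.341). It was the lowest for Hars at 37.2 TPM (median 39.9) and Prdx4 at 270.7 TPM (median 296).

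Replicate 6 of DMSO was the lowest for the interferon-responsive genes Gbp2 at 62.7 TPM (median 88.9), Psmb8 at 54.4 TPM (median 71.2) and Tap1 at 24.1 TPM (median 31.6), and the highest for Pkm at 1487 TPM (median 1213).

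The other flags were Ddit3 in replicate 2 at 97.0 TPM (median 82.5), Trib3 in replicate 1 at 3.05 TPM (median 4.68) and Cdk1 in replicate 3 at 30.1 TPM (median 31.9).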

How the results depend on the processing

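Of 584 named or listed genes called in the comparison with DMSO, 540 kept direction and call under every alternative run. The call was lost in at least 1 alternative by 44. The 35 genes named by size or as set apart all kept both. They were picked for large differences in the main fit, and some entered through 1 group alone, so this adds no support. Leaving out 1 library gave 8791 to 9405 changed genes, 1881 to 2089 changed at least 2-fold, 6873 to 7071 different from AEG 3482 and 200 to 318 set apart, the lowest of the last without Cardamonin replicate 3 and the highest without replicate 2. With a pseudocount of 0.1 the set apart genes were 409 (118 higher, 291 lower) in place of 254. Quantile normalization reversed Slc38a2 to -0.092, Hars to -0.015, Kars to -0.10, Lamp2 to 0.0056 and mt-Cytb to 0.24; the cause was not tested. Deviations of same-numbered Cardamonin and DMSO libraries had correlations of 0.02, 0.00 and -0.04, and other pairs ran from -0.09 to 0.09. With so few pairs this cannot decide whether the numbers mark a shared culture or day, which is not known. A replicate block gave 9100 changed genes, 2057 at least 2-fold, 253 set apart and 7621 different from AEG 3482. Without read numbers, limits of detection cannot be given.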
